A study of Arabidopsis thaliana with 12 samples.

Results

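The UDP-glycosyltransferases (UGTs) of Arabidopsis thaliana were followed through an oxidative treatment in seedlings with and without over-expression of the zinc finger protein Zat12. Members were the probe sets that the platform annotation pairs with a single gene whose symbol is UGT followed by a family number. The rule found 47 of the 22746 probe sets that are not array controls, in 11 families. UGT71 had 9 members, UGT76 had 8, UGT73 had 7, UGT84 and UGT85 had 5 each, UGT72 had 4, UGT74 and UGT78 had 3 each, and UGT80, UGT87 and UGT88 had 1 each. All 47 loci carried the same symbol in the RefSeq gene table of assembly TAIR10.1, which lists 58 such symbols. Probe sets that pair a UGT with another gene numbered 3 and were left out.

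UGTs move a sugar from a UDP-activated donor onto a small acceptor molecule, which usually makes the acceptor more soluble and less reactive and prepares it for storage in the vacuole. In plants the acceptors include hormones such as abscisic acid, auxin, cytokinins and salicylic acid, flavonols and other phenylpropanoids, sterols, and foreign chemicals such as herbicides and explosives. The family number groups enzymes by sequence similarity, and a single family can hold enzymes with different acceptors.

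The samples were 5-day-old Columbia seedlings grown in liquid Murashige and Skoog (MS) culture, in 4 groups of 3 Affymetrix ATH1 arrays each. They were untreated wildtype, wildtype after 20 mM H2O2 for 1 h, untreated Zat12 over-expressors, and Zat12 over-expressors after the same H2O2 treatment. In the over-expressors ZAT12 is driven by the 35S promoter of cauliflower mosaic virus, which is active in most tissues, and the labels do not say how many transgenic lines were used. The level of ZAT12 itself, the usual check of these labels, was not analysed here. The labels do not say that replicates came from separate cultures, so p-values measure only the spread between these samples.

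Values were MAS5 signals, a linear brightness that the authors had scaled to a common mean per array. On the array of Zat12 replicate 2, 6408 probe sets (28.1%) were empty. Among them were 11 UGT members, for which untreated Zat12 rests on 2 arrays (n = 2). RCA, which encodes Rubisco activase of green tissue, lay between 5871 and 7603 on the wildtype arrays. Of 8 root markers 5 had a named probe set, and their summed signal was lower after treatment without overlap, at 6507 to 8718 in wildtype against 5247 to 6445 after H2O2, and at 7367 to 7582 on the 2 complete untreated Zat12 arrays against 5771 to 6136. Most of that sum is PYK10, which overlapped in wildtype, at 5695 to 8094 untreated and 5050 to 6184 treated. The root markers AT5G17820, AT4G26010 and AT1G30870 were lower after H2O2 without overlap in both genotypes. In wildtype AT4G26010 went from between 243 and 349 to between 42.7 and 90.8, and in Zat12 from between 284 and 513 to between 31.6 and 62.5. XTH21 was between 0.818 and 2.59 in untreated wildtype. The part of these root levels in the UGT results was not tested. In whole seedlings, fewer cells of a type and less RNA per cell cannot be told apart.

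Of the 47 members, 28 had a mean signal high enough to test, with means from 31.2 to 521 and a median of 86.4, and 19 fell under the filter on low signal, with means from 1.71 to 62.3 and a median of 8.01. On 13 of these 19 every array was below a signal of 28.1, the level of the filter. Changes are differences of log2(signal + 3) fitted by limma on all 13647 tested probe sets, and calls were made where the p-value, adjusted by Benjamini and Hochberg's method over all of these, was below 0.05.

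H2O2 in wildtype raised 6 of the 28 tested members, or 21.4%, where 9.59% of all tested probe sets rose. It lowered 1 member, or 3.57%, where 12.4% of all fell. In Zat12 seedlings H2O2 raised 6 members, where 8.16% of all tested probe sets rose, and lowered 5, or 17.9%, where 9.12% of all fell. In either direction, 22% of all tested probe sets were called in wildtype and 17.3% in Zat12. At an unadjusted p below 0.05 there were 13 members in each genotype, beside 34.5% of all in wildtype and 29.6% in Zat12. The median log2 change of the 28 members was 0.15 in wildtype and -0.08 in Zat12, and that of all tested probe sets was -0.07 and -0.09. UGT73B5 passed the filter only through its treated arrays. Without it 5 of 27 members rose in each genotype, 18.5%, and the medians were 0.14 and -0.09. UGT71C1, among the 5 lowered in Zat12, passed the filter only through its untreated arrays.

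The members raised in both genotypes were UGT71C5, UGT73B1, UGT73B5, UGT74B1 and UGT87A2, and UGT78D1 was lowered in both. UGT85A2 passed the test in wildtype alone and UGT76E11 in Zat12 alone on the rising side. UGT71C1, UGT71C4, UGT72E2 and UGT78D2 passed it in Zat12 alone on the falling side. No member was called in opposite directions, and 16 of the 28 were called in neither genotype. The difference between the genotypes was tested separately and is given further on.

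**Figure D1:**
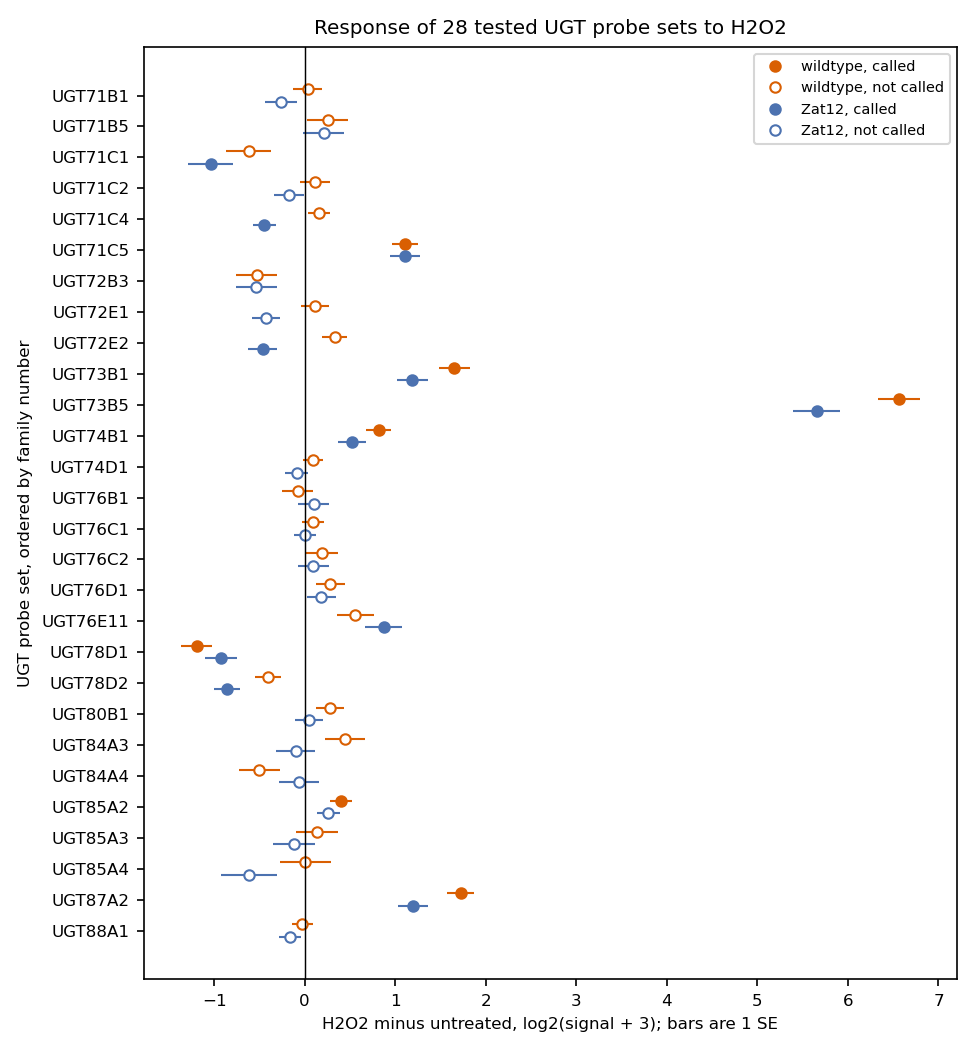
Log2 change of signal + 3 with H2O2 for the 28 tested UGT members in wildtype and in Zat12 over-expressors, with bars of 1 standard error. Filled points passed limma's adjusted p below 0.05. UGT73B5 stands apart at 6.56 in wildtype and 5.65 in Zat12, and UGT78D1 is the lowest point in wildtype at -1.19.

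The UGT73 family holds enzymes linked to stress, pathogen responses and the conjugation of foreign chemicals. Of its 7 members, UGT73B1 and UGT73B5 were tested and rose in both genotypes, and UGT73B5 passed the filter only through its treated arrays. UGT73B5 (AT2G15480), needed in Arabidopsis for full resistance to a bacterial pathogen, was nearly dark without treatment. Its signals were 1.16, 1.98 and 3.37 on the wildtype arrays and 584, 387 and 483 after H2O2. In Zat12 they were 4.49 and 12.0 on the 2 arrays with a value and 518, 455 and 631 after H2O2. Treated and untreated arrays lay far apart in both genotypes. The fitted log2 change was 6.56 in wildtype and 5.65 in Zat12, given as a description because the treated arrays alone brought this member into the test. Its size depends on the offset, since the untreated signals are near or below 3, and across the alternatives it ran from 5.12 to 7.92 in wildtype and from 4.77 to 6.17 in Zat12.

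UGT73B1 (AT4G34138), of the same subfamily, had a clear signal before treatment. UGT73B1 signals were 89.4, 64.4 and 102 in untreated wildtype and 348, 256 and 219.9 after H2O2. In Zat12 its signals were 117, 116 and 109 untreated and 305, 237 and 251 treated. Every treated array was above every untreated array of either genotype. The mean went from 85.2 ± 19.0 to 274 ± 66.2 (SD, n = 3) in wildtype, a log2 change of 1.65 (SE 0.17, limma adjusted p = 1.21e-06). In Zat12 it went from 114 ± 4.56 to 265 ± 35.9, a log2 change of 1.19 (SE 0.17, limma adjusted p = 6.42e-05).

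The other 5 UGT73 members fell under the filter on low signal. UGT73B4 (AT2G15490), which with UGT73C1 can conjugate products of the explosive TNT, was among them because its untreated signals pull its mean down. UGT73B4 signals were 1.18, 3.21 and 3.40 in wildtype and 154, 71.7 and 121 after H2O2. In Zat12 they were 11.9, 3.53 and 3.76 untreated and 145, 87.4 and 142 treated. The groups did not overlap in either genotype. In a fit without the filter, UGT73B4 changed by 4.36 (SE 0.37, limma adjusted p = 2.08e-06) in wildtype and by 3.84 (limma adjusted p = 7.85e-06) in Zat12. UGT73B4 and UGT73B5 are neighbours, and 100% of the UGT73B4 span lies inside the UGT73B5 span in the RefSeq table. Whether the 2 probe sets tell their transcripts apart was not tested.

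UGT87A2 (AT2G30140), which influences flowering time in Arabidopsis, rose in both genotypes. UGT87A2 signals were 81.8, 71.7 and 78.4 in wildtype and 331, 231 and 234 after H2O2. In Zat12 they were 83.0 and 96.3 on 2 arrays and 218, 183 and 227 after H2O2. All treated arrays lay above all untreated arrays, and the Zat12 treated arrays lay below the wildtype treated arrays. The log2 change was 1.72 (SE 0.15, limma adjusted p = 1.43e-07) in wildtype and 1.19 (SE 0.16, limma adjusted p = 4.35e-05) in Zat12.

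Among the enzymes that act on hormones, UGT71C5 (AT1G07240), which makes the glucose ester of abscisic acid, rose by the same amount in both genotypes. UGT71C5 signals were 90.1, 66.3 and 81.3 in wildtype and 212, 151 and 160.0 after H2O2. In Zat12 they were 76.4 and 80.7 on 2 arrays and 186, 172 and 159.9 after H2O2. The treated arrays were all higher in both genotypes. The log2 change was 1.11 in wildtype (SE 0.15, limma adjusted p = 3.02e-05) and 1.11 in Zat12 (SE 0.16, limma adjusted p = 0.000106), and the 95% interval of the difference ran from -0.46 to 0.47.

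UGT71B6 and UGT71B8, which also glucosylate abscisic acid, fell under the filter. UGT71B6 signals were 0.957, 0.784 and 2.13 in wildtype and 19.8, 11.7 and 5.18 after H2O2. In Zat12 they were 2.42, 1.63 and 0.912 untreated and 5.07, 11.1 and 8.88 treated. The groups did not overlap in either genotype. Fitted without the filter, UGT71B6 changed by 1.72 (limma adjusted p = 0.00516) and 1.26 (limma adjusted p = 0.0373). UGT71B8 signals in Zat12 were 3.73, 3.31 and 2.65 untreated and 17.0, 16.8 and 19.1 treated, a log2 change of 1.73 (limma adjusted p = 0.0149). In wildtype UGT71B8 overlapped between the groups, with 12.4, 3.85 and 2.76 untreated and 16.6, 11.5 and 3.88 treated, and its log2 change of 0.56 did not pass (limma adjusted p = 0.466).

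Of the members that act on salicylic acid or auxin, the 2 with a testable signal, UGT76B1 and UGT74D1, were not called. UGT76B1, which glucosylates salicylic acid and isoleucic acid, had mean signals of 125 ± 5.56 in wildtype, 119 ± 4.41 after H2O2, 94.9 ± 17.8 in Zat12 and 103 ± 27.9 in Zat12 after H2O2 (SD, n = 3). UGT74D1, which acts on auxin and its oxidised form, had signals of 268, 255 and 315 in wildtype and 323, 283 and 285 after H2O2, which overlap. In Zat12 UGT74D1 had 263 and 274 on 2 arrays and 252, 253 and 252 after H2O2, all treated arrays being lower, with a log2 change of -0.09 that was not called (limma adjusted p = 0.687). UGT74F1, another salicylic acid enzyme, was under the filter and had all treated arrays below all untreated arrays in both genotypes. Fitted without the filter its log2 changes were -1.23 (limma adjusted p = 0.0528) in wildtype and -0.84 (limma adjusted p = 0.219) in Zat12. UGT84B1, which makes the glucose ester of auxin, stayed between 0.609 and 3.09 on every array with a value.

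The cytokinin N-glucosyltransferases UGT76C1 and UGT76C2 were not called in any comparison. UGT76C2 signals were 84.1, 85.9 and 144 in wildtype and 109.7, 126 and 115 after H2O2. The Zat12 signals were 117, 155 and 159 untreated and 159, 142 and 156 treated, so treated and untreated arrays overlapped in both genotypes. Under H2O2 all its Zat12 arrays were above all its wildtype arrays, with a difference of 0.38 in log2 (limma adjusted p = 0.282). The log2 changes of UGT76C1 with H2O2 were 0.09 in wildtype and 0.01 in Zat12.

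UGT74B1 (AT1G24100), which adds the glucose of the glucosinolate core, rose in both genotypes. UGT74B1 signals were 79.1, 63.3 and 96.2 in wildtype and 137, 148 and 137 after H2O2. The Zat12 signals were 90.5 and 97.1 on 2 arrays and 129.9, 133 and 146 after H2O2. Every treated array was above every untreated array. The log2 change was 0.82 (SE 0.14, limma adjusted p = 0.000418) in wildtype and 0.52 (SE 0.16, limma adjusted p = 0.0281) in Zat12. The array control for 25S ribosomal RNA was higher after treatment in wildtype, at 71.4 ± 48.1 untreated and 232 ± 92.3 after H2O2 (SD, n = 3). In Zat12 it was 173 ± 92.3 untreated and 227 ± 81.9 after H2O2 (SD, n = 3). Its Zat12 arrays overlapped, at 96.3 to 275 untreated and 133 to 286 treated. The wildtype arrays of this control did not, at 32.9 to 125.3 untreated and 125.7 to 295 treated. As a covariate it can therefore take up part of the treatment difference in wildtype. Untreated wildtype had the lowest mean of the 4 groups. With that control as a covariate neither UGT74B1 change was called, at 0.59 (limma adjusted p = 0.0623) and 0.42 (limma adjusted p = 0.0648). The Zat12 change was also not called without Zat12 replicate 1 (0.47), Zat12 replicate 3 (0.57) or treated Zat12 replicate 3 (0.47).

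**Figure D2:**
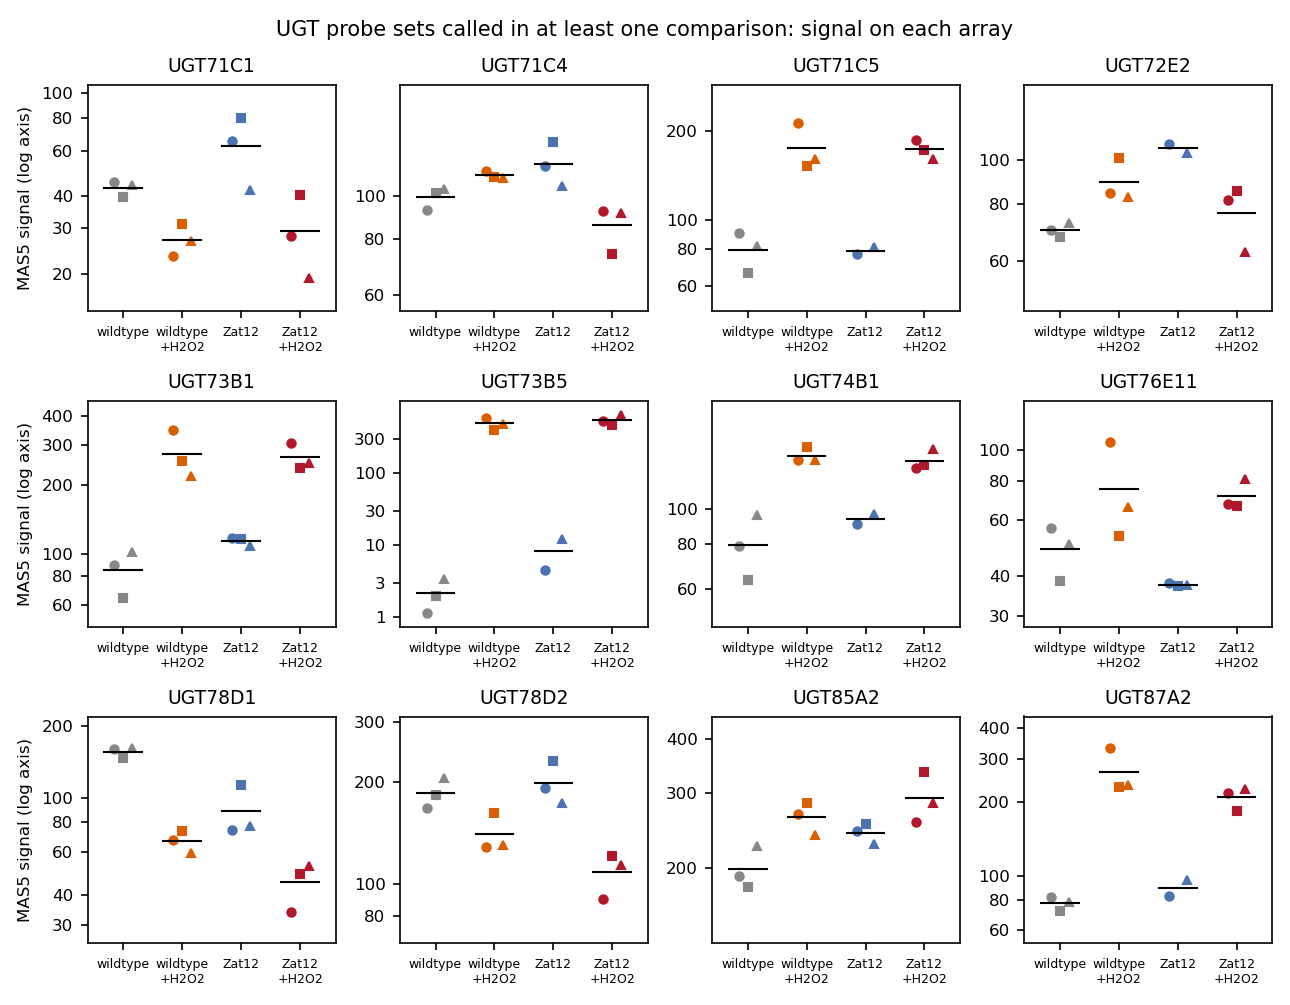
MAS5 signal on a log axis for the 12 UGT members called in at least 1 comparison, by group, with a circle, a square and a triangle for replicates 1, 2 and 3 and a line at the group mean. UGT73B5 goes from signals of at most 12.0 without treatment to at least 387 with it, and UGT78D1 is lower after H2O2 in both genotypes.

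The UGT78 enzymes attach sugars to flavonols and related flavonoids, and with H2O2 both tested members fell in Zat12 and UGT78D1 fell in wildtype. UGT78D1 (AT1G30530), the flavonol rhamnosyltransferase, had signals of 160.4, 147 and 162 in wildtype and 67.5, 73.2 and 59.6 after H2O2. In Zat12 its signals were 74.3, 114 and 76.8 untreated and 33.9, 48.6 and 52.3 treated. All treated arrays were below all untreated arrays within each genotype, and each Zat12 group lay below the wildtype group of the same treatment. The log2 change with H2O2 was -1.19 (SE 0.17, limma adjusted p = 6.66e-05) in wildtype and -0.92 (SE 0.17, limma adjusted p = 0.00093) in Zat12.

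UGT78D2 (AT5G17050), the flavonoid glucosyltransferase that also serves anthocyanins, fell in Zat12. UGT78D2 signals there were 191, 231 and 173 untreated and 89.9, 120.4 and 114 treated, with no overlap and a log2 change of -0.86 (SE 0.15, limma adjusted p = 0.000338). In wildtype the treated signals of 128, 162 and 129.6 also lay below the untreated 168, 183 and 205. That log2 change of -0.40 (SE 0.15) missed the threshold, with a limma adjusted p of 0.0563. UGT78D3, the flavonol arabinosyltransferase, was under the filter, with 2.36, 2.30 and 3.27 in wildtype and 3.74, 5.98 and 7.62 after H2O2. In Zat12 UGT78D3 had 2.71, 4.17 and 3.90 untreated and 11.4, 6.87 and 8.07 treated. All its treated arrays were higher within each genotype, and neither change was called in the fit without the filter, at 0.62 (limma adjusted p = 0.156) and 0.83 (limma adjusted p = 0.0624).

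Of 17 genes of the flavonol and anthocyanin pathway listed for comparison, 1 had a named probe set. DFR, the dihydroflavonol reductase of the anthocyanin branch, had mean signals of 62.9 ± 12.7 in wildtype, 58.4 ± 3.23 after H2O2, 52.2 ± 3.29 in Zat12 and 36.3 ± 1.10 in treated Zat12 (SD, n = 3). DFR fell with H2O2 in Zat12 by 0.49 on the log2 scale (limma adjusted p = 0.0366) and was not called in wildtype, at -0.09 (limma adjusted p = 0.74).

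UGT72E1, UGT72E2 and UGT72E3 glucosylate the alcohols and aldehydes from which lignin is built. UGT72E2 (AT5G66690) had signals of 70.0, 67.7 and 72.7 in wildtype and 84.5, 101 and 82.7 after H2O2, all treated arrays being higher. In Zat12 it had 108.5 and 103 on 2 arrays and 81.6, 85.5 and 62.7 after H2O2, all treated arrays being lower. The log2 change was 0.33 (SE 0.14, limma adjusted p = 0.101) in wildtype, not called, and -0.47 (SE 0.16, limma adjusted p = 0.0498) in Zat12. The Zat12 call was lost in 16 of the 23 alternatives that could test it, with an adjusted p of up to 0.20.

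UGT72E1 signals were 85.0, 107 and 112 in wildtype and 111, 113 and 105 after H2O2. Zat12 arrays gave 106, 157 and 117 untreated and 83.7, 107 and 85.9 treated. The groups of UGT72E1 overlapped in both genotypes, and its change of -0.43 in Zat12 missed the threshold (limma adjusted p = 0.0635). UGT72E3 was between 1.33 and 3.24 on every array. The UGT84A enzymes make glucose esters of hydroxycinnamic acids, and neither tested member was called. UGT84A4 signals were 41.0, 54.6 and 46.1 in wildtype and 31.0, 42.6 and 25.3 after H2O2, which overlap, a log2 change of -0.50 (limma adjusted p = 0.12). In Zat12 UGT84A4 had 42.4, 29.3 and 28.9 untreated and 31.0, 26.5 and 37.6 treated, also overlapping.

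The remaining UGT71 enzymes with a call fell in Zat12. UGT71C1 (AT2G29750) had signals of 65.5, 80.2 and 42.3 in Zat12 and 27.9, 40.5 and 19.3 after H2O2, without overlap, a log2 change of -1.04 (SE 0.25, limma adjusted p = 0.00653). In wildtype it had 45.4, 39.8 and 44.0 untreated and 23.5, 31.2 and 26.7 treated, also without overlap. That log2 change of -0.62 (SE 0.25, limma adjusted p = 0.0844) was the largest in size in wildtype among tested members that were not called. The treated mean signals of UGT71C1 were 27.1 in wildtype and 29.2 in Zat12, about the filter level of 28.1. UGT71C1 passed the filter only through its untreated arrays, so its falls are given as a description.

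UGT71C4 (AT1G07250) had signals of 117, 132.5 and 106 in Zat12 and 92.7, 74.4 and 91.8 after H2O2. All treated Zat12 arrays were lower, with a log2 change of -0.44 (SE 0.13, limma adjusted p = 0.0198). In wildtype it had 93.1, 102 and 104 untreated and 114, 111 and 109.8 treated, all treated arrays being higher, and the log2 change of 0.16 was not called (limma adjusted p = 0.4). The UGT71C4 call in Zat12 was lost without Zat12 replicate 1 (-0.45), Zat12 replicate 2 (-0.36) or treated Zat12 replicate 2 (-0.34).

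UGT76E11 (AT3G46670), which can glucosylate flavonoids, rose in Zat12. Its signals there were 38.1, 37.3 and 37.7 untreated and 67.8, 66.6 and 81.0 treated, a log2 change of 0.87 (SE 0.20, limma adjusted p = 0.00548). In wildtype UGT76E11 overlapped between the groups, with 57.0, 38.8 and 50.4 untreated and 106, 53.6 and 66.1 treated. That log2 change of 0.56 (SE 0.20) missed the threshold, with a limma adjusted p of 0.0592. Its chromosome neighbour UGT76E12, under the filter, had signals of 0.945, 2.67 and 1.31 in wildtype and 14.8, 18.8 and 16.7 after H2O2. In Zat12 UGT76E12 had 0.873, 1.24 and 9.32 untreated and 14.8, 16.2 and 27.3 treated. Neither genotype had overlapping groups, and in the fit without the filter the log2 changes of UGT76E12 were 2.10 (limma adjusted p = 0.00317) and 1.89 (limma adjusted p = 0.00726).

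UGT85A2 (AT1G22360) had signals of 192, 181 and 226 in wildtype and 267, 285 and 239 after H2O2. All treated arrays were higher, with a log2 change of 0.40 (SE 0.12, limma adjusted p = 0.028). In Zat12 the treated signals of 256, 335 and 285 also lay above the untreated 244, 254 and 228, and the change of 0.26 was not called (limma adjusted p = 0.172). The UGT85A2 call in wildtype was lost with the 25S control as a covariate, at 0.15 (limma adjusted p = 0.598). That control did not overlap between the wildtype groups, so it can take up part of the treatment difference. The UGT85A2 call was also lost in a fit of the compared arrays alone (limma adjusted p = 0.0532). The same held without wildtype replicate 1 (0.38), wildtype replicate 2 (0.33), treated wildtype replicate 1 (0.39) or treated wildtype replicate 2 (0.34).

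Among members with no call, UGT88A1 had signals of 461, 568 and 531 in wildtype and 563, 478 and 487 after H2O2. In Zat12 it had 514, 574 and 579 untreated and 504, 550.5 and 438 treated. Its groups overlapped, and its log2 changes with H2O2 were -0.03 and -0.16. UGT80B1, a sterol glucosyltransferase that shapes the seed coat, had 50.5, 55.6 and 38.5 in wildtype, 54.6, 60.9 and 59.8 after H2O2, 47.3, 51.4 and 51.2 in Zat12, and 51.0, 56.6 and 47.6 in treated Zat12, with overlap throughout. UGT85A4 had the largest uncalled change in Zat12, -0.61 (SE 0.31, limma adjusted p = 0.204), from 38.8 and 51.8 on 2 arrays to 37.4, 33.1 and 18.1, all treated arrays being lower. In wildtype UGT85A4 overlapped, with 31.6, 32.4 and 62.3 untreated and 49.2, 33.7 and 39.3 treated. UGT71B1, UGT71B5, UGT71C2, UGT72B3, UGT76D1, UGT84A3 and UGT85A3 were tested and called in no comparison. Their log2 changes ran from -0.53 for UGT72B3 to 0.44 for UGT84A3 in wildtype and from -0.53 for UGT72B3 to 0.21 for UGT71B5 in Zat12.

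For the 19 members under the filter, the fit without it called 4 higher with H2O2 in wildtype, UGT71B6, UGT73B4, UGT73C1 and UGT76E12, and none lower. In Zat12 it called 5 higher, UGT71B6, UGT71B8, UGT73B4, UGT73C7 and UGT76E12, and none lower. The share of all probe sets called in that fit is not given here, so these counts have nothing to be set against. UGT73C1 signals were 0.986, 1.14 and 0.80 in wildtype and 4.46, 3.72 and 6.03 after H2O2, a log2 change of 0.95 (limma adjusted p = 0.0141). UGT73C7 signals in Zat12 were 3.29, 6.47 and 9.67 untreated and 39.4, 19.8 and 17.9 treated, a log2 change of 1.58 (limma adjusted p = 0.0195). In both cases all treated arrays lay above all untreated arrays. The other 9 members under the filter were UGT71C3, UGT73C2, UGT73D1, UGT76E1, UGT76E2, UGT84A1, UGT84B2, UGT85A5 and UGT85A7.

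**Figure D3:**
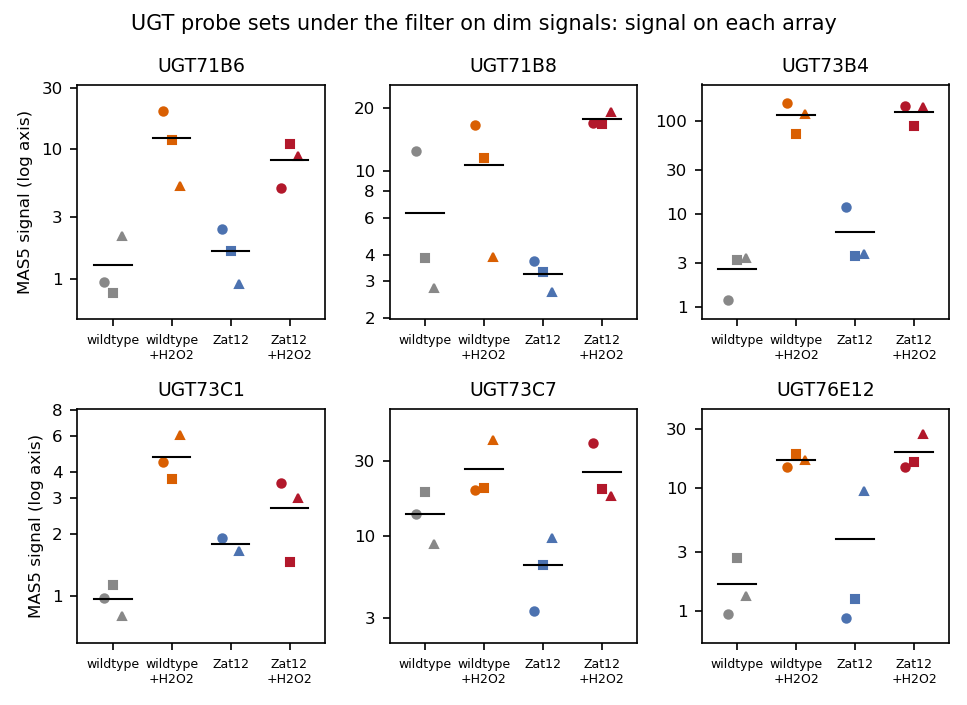
MAS5 signal on a log axis for 6 UGT members under the filter on low signal, by group, with a circle, a square and a triangle for replicates 1, 2 and 3. UGT73B4 goes from 1.18 to 11.9 without treatment to between 71.7 and 154 with it, and the other 5 members reach at most 40.7.

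Over-expression of Zat12 without treatment left the UGT family with 1 call, UGT78D1, which was lower than in wildtype, where 0.498% of all tested probe sets were lower, 0.725% higher and 1.22% called in all. The mean signal was 156 ± 8.32 in wildtype and 88.3 ± 22.1 in Zat12 (SD, n = 3), and the log2 difference was -0.83 (SE 0.17, limma adjusted p = 0.0265). The UGT78D1 call was lost without wildtype replicate 1 (-0.81), wildtype replicate 3 (-0.80), Zat12 replicate 1 (-0.72) or Zat12 replicate 3 (-0.74). It was also lost when the 25S control entered as a covariate (-0.98, limma adjusted p = 0.0589). At an unadjusted p below 0.05, 8 of the 28 members differed, beside 12% of all tested probe sets. UGT73B5 had all Zat12 arrays above all wildtype arrays, with a difference of 1.06 in log2 (SE 0.26, limma adjusted p = 0.0641). That value ran from 0.49 to 1.89 over 23 alternatives and was called in 4 of them, among them with no offset (1.89), without wildtype replicate 3 (1.22) and without Zat12 replicate 1 (1.56). Without Zat12 replicate 3 it was 0.56. UGT72E2 also had all Zat12 arrays higher, with 0.58 (SE 0.16, limma adjusted p = 0.0928). Both rest on 2 untreated Zat12 arrays.

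Under H2O2 limma called 0 of the 28 members between the genotypes, where it called 2.92% of all tested probe sets, 1.52% higher and 1.4% lower. At an unadjusted p below 0.05 there were 5, UGT71C4, UGT76C2, UGT78D1, UGT78D2 and UGT87A2, beside 16.7% of all. The smallest adjusted p was 0.0948, for UGT78D1, at a log2 difference of -0.56 (SE 0.17) with all Zat12 arrays below all wildtype arrays. The fitted difference was negative for 23 of the 28 members, with a median of -0.20 beside -0.01 over all tested probe sets. The share of all tested probe sets with a negative difference is not given here, so the count has nothing to be set against.

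The test of whether the H2O2 response differed between the genotypes called 0 of the 28 members with limma, where it called 0.11% of all tested probe sets. At an unadjusted p below 0.05 there were 6, UGT71C4, UGT72E1, UGT72E2, UGT73B5, UGT78D2 and UGT87A2, beside 7.12% of all, and the smallest adjusted p was 0.272. The response in Zat12 minus that in wildtype was negative for 23 members, with a median of -0.24 beside -0.01 over all tested probe sets. These values share arrays with the 2 H2O2 comparisons above. Here too the share of all tested probe sets with a negative difference is not given. UGT72E2 had a difference of -0.80 with a 95% interval from -1.24 to -0.36, UGT71C4 one of -0.60 from -0.98 to -0.23, and UGT87A2 one of -0.53 from -0.99 to -0.07. These members are among the 6 picked by an unadjusted p below 0.05, so their unadjusted intervals had to leave out 0. For UGT73B5 the difference was -0.91, and it ran from -1.74 to -0.35 over the alternatives because the untreated signals are near or below the offset. For UGT73B1 the interval of the difference, from -0.98 to 0.05, and for UGT78D1, from -0.25 to 0.79, include 0. A member called in a single genotype is therefore not shown to respond differently there.

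**Figure D4:**
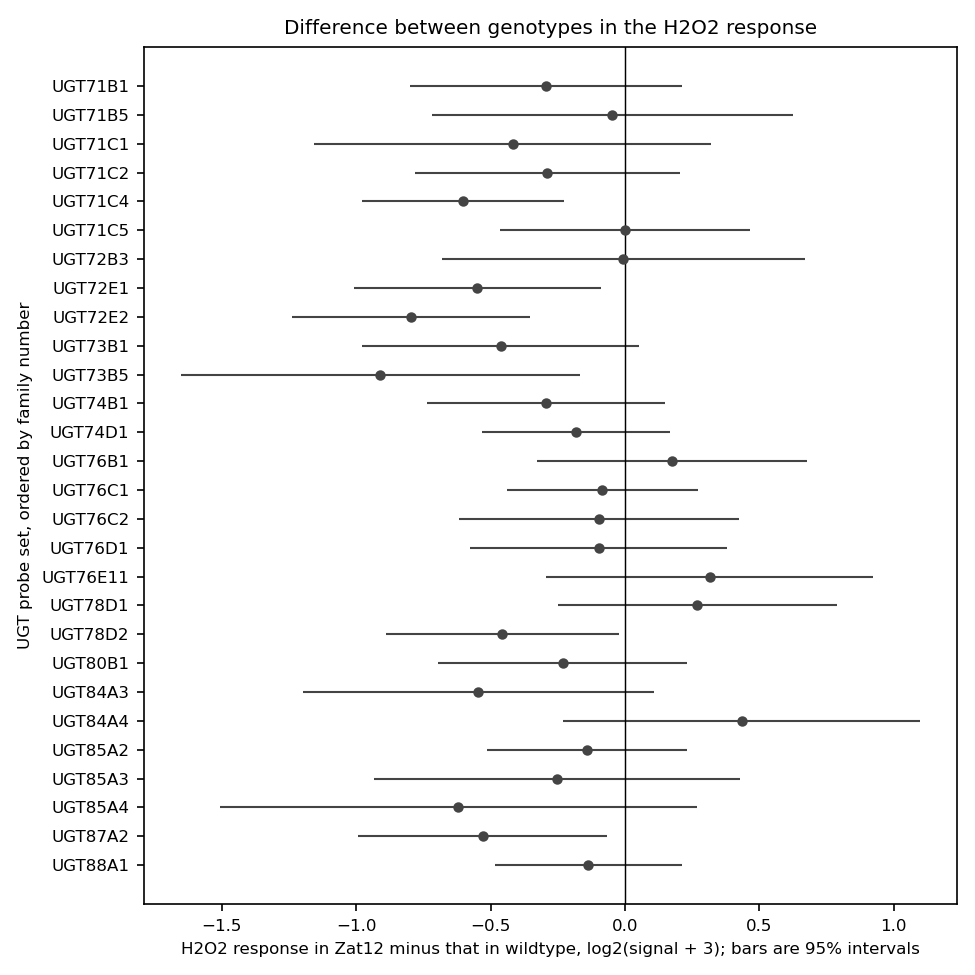
H2O2 response in Zat12 minus that in wildtype, on the log2(signal + 3) scale, for the 28 tested UGT members, with 95% intervals. For 23 members the point lies below 0, a count given without the share of all tested probe sets. None passed limma's adjusted p below 0.05.

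By position in the RefSeq table, 31 of the 47 members lay in 13 runs of neighbouring UGT genes with at most 2 genes between them. The runs were 9 pairs, 3 triples and 1 of 4 members, and 6 of them held a member called with H2O2. No such count for runs of other genes is given here, so it has nothing to be set against. The runs of UGT73B5 and UGT71C1 counted only through those members. At least 2 members were tested in 5 of the 13 runs, so calls could be compared only there. UGT73B5 rose together with UGT73B4, and in Zat12 UGT76E11 with UGT76E12, UGT73B4 and UGT76E12 being under the filter. Tested neighbours did not always share a call. UGT71C5, with a log2 change of 1.11 in each genotype, lies beside UGT71C4, with 0.16 in wildtype and -0.44 in Zat12. UGT71C2 lies beside UGT71C1 and was called in no comparison, with 65.1, 92.1 and 69.5 in wildtype and 99.3, 71.1 and 75.4 after H2O2. In Zat12 UGT71C2 had 81.5, 87.3 and 85.6 untreated and 60.7, 83.8 and 82.0 treated, and its groups overlapped in both genotypes.

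A further 4 probe sets are paired with genes for which RefSeq lists a UGT name only as a synonym, GT72B1, UF3GT, SGT and AT5G54010, so the rule left them out. GT72B1 (AT4G01070), which glucosylates chlorinated phenols and anilines, had mean signals of 124 ± 2.12 in wildtype and 477 ± 94.2 after H2O2, and 112 ± 19.8 and 451 ± 54.4 in Zat12 (SD, n = 3). Its log2 changes of 1.90 (limma adjusted p = 2.66e-08) and 1.98 (limma adjusted p = 1.36e-08) were larger than those of every tested UGT member but UGT73B5. UF3GT and SGT were not called, and AT5G54010 was under the filter. IAGLU (AT4G15550), an auxin glucosyltransferase that the table gives no UGT name, went from 92.1 ± 19.5 to 339 ± 79.9 in wildtype and from 109.3 ± 7.45 to 258 ± 30.9 in Zat12. The log2 changes of IAGLU were 1.84 (limma adjusted p = 1.86e-07) and 1.21 (limma adjusted p = 3.47e-05).

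Other enzymes of the detoxification pathway and of sugar supply mostly had no named probe set. Of 19 listed genes of xenobiotic detoxification other than UGTs, 3 were named and tested. In both genotypes 2 of them rose with H2O2, where 9.59% of all tested probe sets rose in wildtype and 8.16% in Zat12. AER, an alkenal reductase, changed by 2.66 in wildtype and 2.52 in Zat12 on the log2 scale, and GSTU25, a glutathione transferase, by 3.61 and 3.63. GSTU25 had untreated means of 25.9 in wildtype and 26.4 in Zat12 and passed the filter only through its treated arrays. Its rise is given as a description. The third, AT2G04050, was higher in untreated Zat12 than in untreated wildtype by 2.37. Its mean signals were 11.4 and 20.1 in untreated and treated wildtype and 62.7 and 58.4 in untreated and treated Zat12. The Zat12 arrays alone brought it into the test, so the difference is given as a description. None of 15 listed genes of UDP-sugar supply and none of 10 upstream genes of salicylic acid, glucosinolates and hormones had one.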

How the data were processed

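The authors deposited an intensity for every probe set on each array, a linear MAS5 signal, per the submitters' processing notes. Its version and detection calls are not given in the sources used here. With 2% trimmed at each end, the array means were 100.01 to 100.1, and such scaling hides any change common to most transcripts. Empty cells stayed empty. Gene names came from the platform annotation and RefSeq TAIR10.1. No coordinates are given, since the files name no build.

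Signals became log2(signal + 3), 3 being the 10th percentile. Folds of dim probe sets are understated on this scale. Probe sets above the 40th percentile of mean log2 (4.96, signal 28.1) were tested. limma 3.58.1 in R 4.3.3 fitted the 4 groups with a mean-variance trend and Benjamini-Hochberg adjustment over 13647 probe sets, in 5 contrasts: H2O2 in each genotype, Zat12 against wildtype without and with H2O2, and the interaction. Tables and plots were made with pandas 2.3.3, matplotlib 3.10.9 and Python 3.11.15. The code was tested on simulated arrays. Members named with every array's value were those called, the uncalled member with the highest mean of each family, and the largest uncalled change in each H2O2 comparison. Others were named after their values were seen, for a known substrate or a call without the filter. The members and lists were chosen with earlier results of these data known. Alternatives are in the closing section. The number of arrays limits the precision. Between the 2 treated groups, deviations from the group means correlated at 0.122, 0.146 and 0.133 for arrays of the same number. Between untreated and treated Zat12 they correlated at 0.079, 0.119 and 0.232. The labels do not say that the numbers pair arrays. These correlations are small and were picked out of those between all groups, so they do not settle whether those arrays are paired. The main fit did not use the replicate numbers.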

Additional observations from a re-analysis of the deposited data

Results flagged for a closer look

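UGT71C4 stood out because its wildtype arrays were all higher and its Zat12 arrays all lower after H2O2. The log2 response in Zat12 minus that in wildtype was -0.60 (limma adjusted p = 0.375 over all tested probe sets), so the difference did not pass the test. UGT72E2 stood out in the same way, at -0.80 (limma adjusted p = 0.272), and rests on 2 untreated Zat12 arrays. Both were picked for opposite directions on these arrays.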

How the results depend on the processing

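There were 24 alternatives, 12 of which leave out 1 array. A fit of the compared arrays alone was not run for the interaction, and members outside the 60th percentile filter, or with an empty cell where those were left out, had no value there. Of 19 calls of a member in a comparison, 13 were kept in every alternative that tested the member, 6 were lost in at least 1, and none reversed. The 13 include both H2O2 calls of UGT73B5, which passed the filter only through its treated arrays. They also include the Zat12 call of UGT71C1, which passed it only through its untreated arrays. The lost calls were those of UGT85A2 and UGT74B1 in wildtype, UGT71C4, UGT72E2 and UGT74B1 with H2O2 in Zat12, and UGT78D1 in untreated Zat12. With H2O2 in wildtype, 6 members rose. That count was 10 without the filter, 2 without the probe sets that have empty cells, which leaves 20 members tested, and 5 to 7 with 1 array left out. The count of 1 lower in wildtype was 2 with a filter at the 60th percentile, 2 with only the compared arrays, 3 with a 25S covariate, and 1 to 2 with 1 array left out. In Zat12 the 6 that rose became 11 without the filter, 2 without the probe sets with empty cells, and 5 to 6 with 1 array left out. The 5 that fell became 3 at an adjusted p below 0.01 and 3 to 5 with 1 array left out. In untreated Zat12 the count of 0 higher was 1 with no offset, UGT73B5, and 0 to 2 with 1 array left out. The count of 1 lower was 0 without the filter, without the trend, at an adjusted p below 0.01 and with the 25S covariate, and 0 to 1 with 1 array left out. Between the genotypes under H2O2 and for the interaction, the count stayed at 0 in every alternative that was run for them. The 25S covariate gave 4 higher in wildtype and 5 higher and 7 lower in Zat12. The cause of these changes was not tested, apart from the smaller or larger number of members tested.

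The replicate numbers did not pair the arrays over all 4 groups. Arrays of the same number correlated positively between the 2 treated groups, where the block left the count at 0, and between untreated and treated Zat12. Between those Zat12 groups, arrays of the same number correlated at 0.079, 0.119 and 0.232, and arrays of different numbers between -0.133 and 0.013. Deviations cancel within a group, so positive values for the same number push the others down, and pairing is not settled by them. The main fit of H2O2 in Zat12 did not use the replicate numbers. Over 9798 probe sets, deviations from the group means correlated between -0.25 and 0.23 in 18 pairs of arrays with the same number, 7 of them over 0.1, and 7 of 12 arrays correlated best with their own number. With the replicate number as a block, 7 members were higher and 2 lower in wildtype, 6 higher and 6 lower in Zat12, and 1 higher and 1 lower in untreated Zat12. The calls added were UGT76E11 (limma adjusted p = 0.0411) and UGT78D2 (0.0339) in wildtype, UGT72E1 (0.0342) with H2O2 in Zat12 and UGT73B5 (0.0427) in untreated Zat12, and no call was lost.

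Signals near 3 or below have no reliable fold, which limits UGT73B5, UGT73B4 and the other dim members to a direction and a lower certainty of size. The 8 tested members with an empty cell rest on 2 untreated Zat12 arrays.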
